A study of Danio rerio with 6 samples.

Results

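The expression of 8 growth arrest and damage feedback genes was followed across all 6 arrays of a zebrafish experiment: gadd45aa, mdm2, phlda3, ccng1, sesn3, foxo3b, rps27l and btg2. Every probe set whose single platform gene symbol, current or older, was one of these names was taken, which gave 10 probe sets for 8 genes, of 15502 probe sets and 8793 named genes on the array. Of the genes, 6 had 1 probe set, and foxo3b and btg2 had 2. The morphant group was Ovo1 morphants of the AB strain (n = 3), embryos that received an antisense morpholino directed at the zinc finger transcription factor Ovo1 and that are labelled as carrying sox10(7.2):gfp, a reporter of neural crest cells. They were set against AB control embryos of the same age (n = 3). The sample labels of the controls call them wild type and name no reporter, while the design text gives it to both groups. No label says whether the controls were injected. A difference in reporter or injection, if there was one, cannot be told apart from the effect of the morpholino. Both groups were whole embryos collected at 12 h after fertilisation, the 6-somite stage, when defects of the neural crest first appear in morphants according to the design text. The 8 genes were picked because of their values in this same contrast, so their levels and differences are given as a description, without a test.

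The genes belong to the transcriptional response to damaged DNA and other stresses. In vertebrates this response switches on genes that halt the cell cycle, genes that damp growth signalling through Akt and TOR, and genes that act back on the response itself, so that it can be limited. The best known feedback runs through Mdm2, a ubiquitin ligase that the response induces and that in turn holds it back. Most of these roles were worked out in mammalian cells, and loss of mdm2 is lethal in zebrafish embryos.

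Median intensity per array lay between 132.73 and 154.08, the 25th percentile between 34.86 and 37.39, and with so few arrays the precision is limited. Of 20 measured tissue markers, 18 stood above the 25th percentile on all 6 arrays, among them those of muscle, notochord, neural plate, epidermis, crest and yolk layer; the exceptions were the vessel gene kdrl and the endoderm gene sox17. Of the 20, 3 passed the test (limma), all lower in morphants, as were 3.12% of all probe sets: sox2 and pax6a of the neural plate and crestin of the crest. Of these calls, sox2 held only without Ovo1 morphant replicate 1 among fits that left out 1 array (adjusted p up to 0.197). The other sox2 probe sets, at −0.36 ± 0.11 and −0.03 ± 0.18, did not pass (adjusted p = 0.105 and 0.957, limma). With the replicate number as a block the former passed as lower and the latter did not (adjusted p = 0.0173 and 0.91, limma). The call of pax6a ended without Ovo1 morphant replicate 2, control replicate 2 or control replicate 3 (up to 0.0986). That of crestin ended without Ovo1 morphant replicate 2, control replicate 1 or control replicate 3 (up to 0.105). With the replicate number as a block 1 marker was higher and 8 were lower, beside 8.82% and 9.83% of all probe sets. The part of these shifts in the results on the 8 genes was not tested. Whole embryos were used, so more cells with a transcript and more of it per cell cannot be told apart. The labels do not give the origin of the replicates, so the spread between arrays may be technical. No probe set is annotated as an ovo gene, so the level of the targeted transcript was not examined.

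The feedback genes mdm2 and ccng1 were both higher in morphants. The probe set of mdm2 read 3265, 3296 and 2816 intensity units in morphants 1 to 3, against 403, 337 and 471 in controls 1 to 3. The groups lay far apart, by 2.65 on the log2 scale between the lowest morphant and the highest control. After quantile normalization the difference was 2.94 ± 0.11 on the log2(intensity + 16) scale (SE, n = 3 each), a 7.66-fold higher level in morphants. Cyclin G1, encoded by ccng1, is induced by DNA damage and in mammals recruits a phosphatase to Mdm2. Its intensity was 7412, 8467 and 8561 in morphants, against 3534, 3898 and 4061 in controls. The difference of 1.15 ± 0.07 (log2 ± SE), or 2.21-fold, separated the groups without overlap.

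The growth arrest genes gadd45aa and btg2 differed widely in the size of their change: at the pseudocount of 16 gadd45aa had the largest difference of the 8 genes, and at 64 phlda3 did, while btg2 had the smallest at both. Gadd45 proteins bind PCNA, cyclin B1 with Cdk1, and upstream kinases of p38 and JNK, and are induced by DNA damage and other stress. The probe set of gadd45aa read 583, 762 and 416 in morphants, against 17.7, 7.48 and 24.8 in controls. All control readings lay below the 25th percentile of the arrays, whereas the morphant readings were well above the median. Its difference, 4.22 ± 0.25 (log2 ± SE, n = 3 each), ranked 1 of the 15502 probe sets at the pseudocount of 16. Because the controls were so dim, the size depends on the constant added before taking logs: it was 5.17 with a pseudocount of 1 (rank 1) and 2.99 with a pseudocount of 64 (rank 4).

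The antiproliferative gene btg2, whose product binds the Caf1 subunit of the Ccr4-Not deadenylase, differed least. Its brighter probe set read 3027, 2947 and 2888 in morphants, against 2581, 2545 and 2476 in controls. The groups did not overlap, but the gap between the lowest morphant and the highest control was 0.18 on the log2 scale. The difference was 0.28 ± 0.07 (log2 ± SE), or 1.22-fold. The dimmer probe set of btg2 read 37.1, 45.3 and 38.1 in morphants, against 29.0, 42.6 and 36.2 in controls, close to the 25th percentile of the arrays. There the groups overlapped, with a difference of 0.13 ± 0.14. The mean of both probe sets gave 0.20.

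**Figure D1:**
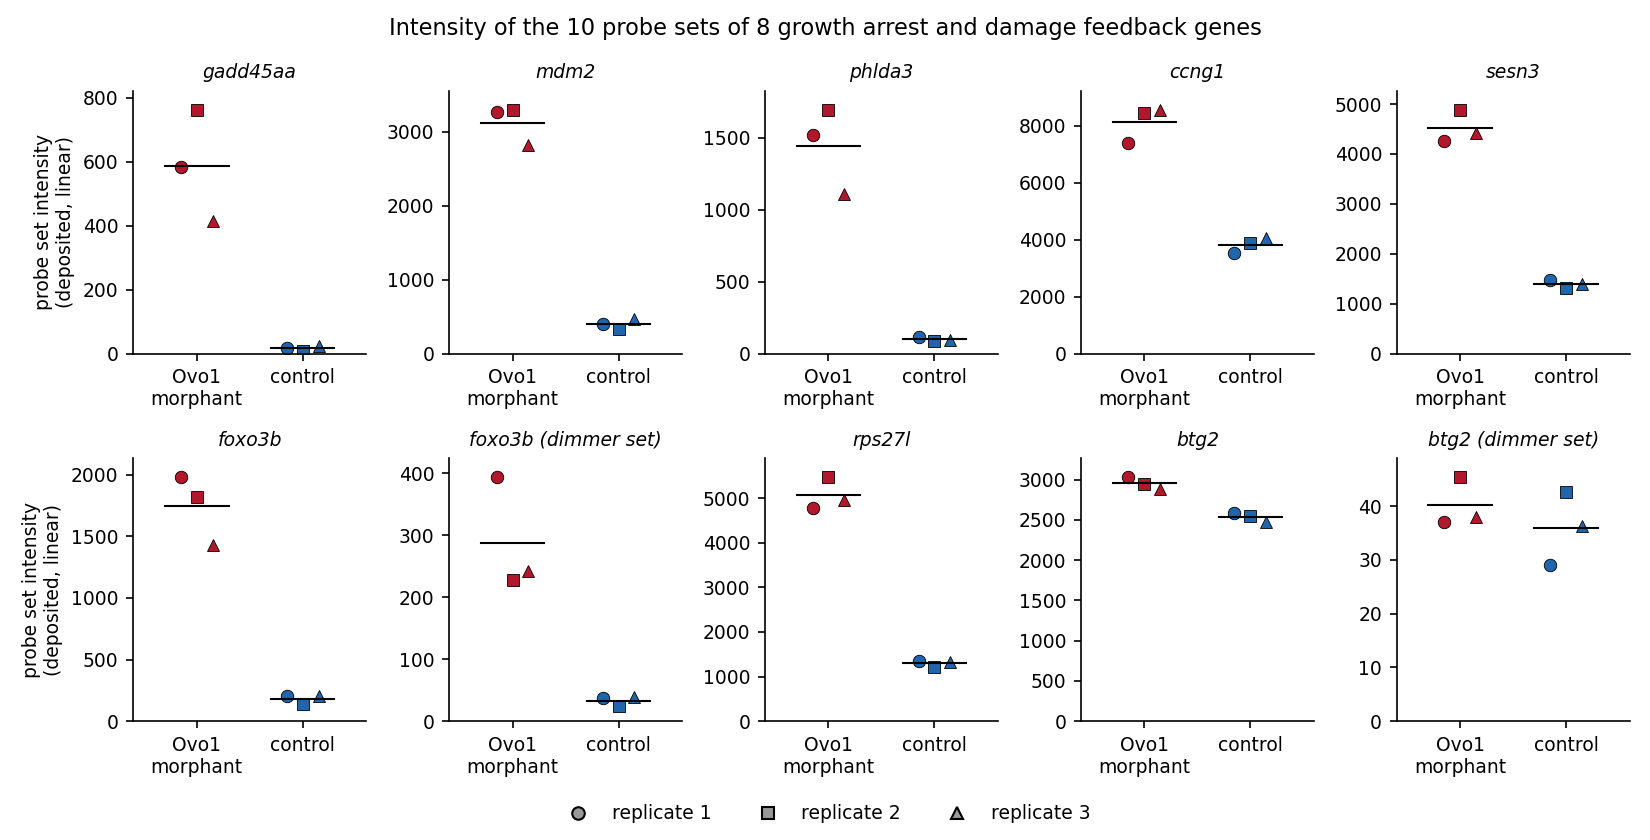
Deposited intensity (linear scale, each panel from 0) of the 10 member probe sets on the 6 arrays, Ovo1 morphants left and controls right, with symbols for replicate numbers and a bar at the mean of 3 arrays. In 9 of 10 panels all morphants lie above all controls, as they do in 12.4% of all probe sets. The dimmer btg2 probe set is the exception. The genes were picked from this contrast, so the count describes the selection.

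The products of 3 members act on, or are controlled by, the Akt and TOR pathway, through which insulin-like factors drive growth. Phlda3, a small protein with a pleckstrin homology domain, competes with Akt for membrane lipids in mammalian cells and so restrains Akt. The probe set of phlda3 read 1520.0, 1695 and 1111 in morphants, against 119, 90.3 and 92.3 in controls. Its difference was 3.64 ± 0.17 (log2 ± SE, n = 3 each), or 12.4-fold. Even morphant 3, the lowest of its group, stood 3.08 above the highest control on the log2 scale.

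Sestrins are stress-induced proteins that, in mammals, bind the GATOR2 complex and hold TOR complex 1 back. The sestrin gene sesn3 read 4252, 4881 and 4427 in morphants, against 1476, 1314 and 1404 in controls. The replicates of each group were close together, with a standard deviation of 0.04 in morphants and 0.09 in controls on the log2 scale. Its difference was 1.70 ± 0.07 (log2 ± SE), or 3.24-fold.

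Foxo3 factors are transcription factors that Akt phosphorylates and keeps out of the nucleus; in mammals their targets include sestrin and Gadd45 genes. The brighter probe set of foxo3b read 1978, 1820 and 1432 in morphants, against 203, 139 and 207 in controls, a difference of 3.15 ± 0.16 (log2 ± SE, 8.88-fold). Its dimmer probe set read 393, 228 and 243 in morphants, against 36.7, 23.7 and 38.9 in controls, a difference of 2.62 ± 0.23. Both probe sets had all morphants above all controls. The smaller difference of the dimmer one was the more dependent on the pseudocount, being 3.09 with 1 and 1.84 with 64.

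The last member, rps27l, encodes a paralogue of the small subunit ribosomal protein Rps27 and is induced by DNA damage in mammals, where its product binds Mdm2. It read 4772, 5465 and 4952 in morphants, against 1339, 1221 and 1336 in controls. The difference was 1.97 ± 0.07 (log2 ± SE, n = 3 each), or 3.91-fold, and the standard deviation within groups was 0.03 in morphants and 0.07 in controls.

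**Figure D2:**
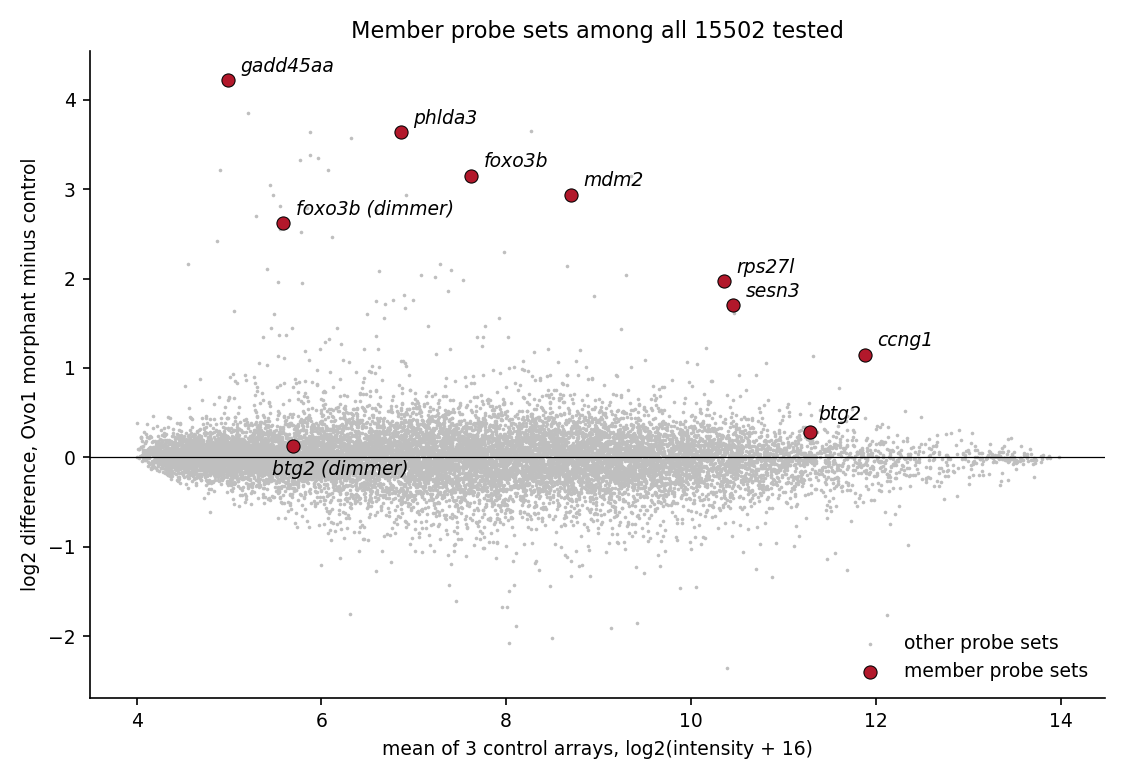
Log2 difference, Ovo1 morphant minus control, against the mean of the 3 control arrays on the log2(intensity + 16) scale, for all 15502 probe sets (grey) and the 10 member probe sets (red). By their brighter probe sets, members run from gadd45aa (4.22), at the left, to ccng1 (1.15) and btg2 (0.28), at the right. The dimmer probe sets of foxo3b (2.62) and btg2 (0.13) also lie towards the left.

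Across the 8 genes, each by its brighter probe set, the median difference was 2.45 on the log2 scale, beside −0.001 over all probe sets. At the pseudocount of 16, differences of at least 8-fold were seen in 3 of the 8, gadd45aa, phlda3 and foxo3b. They were seen in 14 probe sets of the whole array. At 64, phlda3 (3.18) stayed above 8-fold, while gadd45aa (2.99) and foxo3b (2.87) fell below it. The mean of both foxo3b probe sets (2.89) was below it too. All 3 morphants lay above all 3 controls in 9 of the 10 member probe sets and in 12.4% of all probe sets. Since the genes were picked from this contrast, these counts describe the selection. At the pseudocounts of 16 and 1 the order of size was gadd45aa, phlda3, foxo3b, mdm2, rps27l, sesn3, ccng1, btg2; at 64 phlda3 (3.18) stood above gadd45aa (2.99). At the pseudocount of 16, foxo3b and mdm2 lay within the sum of their standard errors of each other. The other neighbours lay further apart than that sum. The sum is not the error of a difference between genes read on the same arrays, and the order was not tested. At 64, mdm2 (2.80) stood close below foxo3b (2.87) and gadd45aa (2.99).

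The replicates of a group did not stand in the same order in every gene. After normalization morphant 3 was the lowest morphant in 4 of the 8 genes, which were those with the largest differences, gadd45aa, phlda3, foxo3b and mdm2. Morphant 3 was the lowest morphant in 33.9% of all probe sets. In ccng1, sesn3 and rps27l morphant 1 was the lowest, and in btg2 morphant 2. Control 2 was the lowest control in 5 of the 8 genes and in 29.8% of all probe sets. Set against the control of the same number, gadd45aa differed by 4.27, 4.99 and 3.40, mdm2 by 3.06, 3.11 and 2.65, and foxo3b by 3.27, 3.40 and 2.78 in numbers 1 to 3. The smallest spread was in ccng1, with 1.15, 1.1 and 1.18. The groups did not overlap in these genes, so any pair of a morphant and a control had to give a positive difference. The pair differences of gadd45aa spanned the widest range.

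Profiles over the 6 arrays, each taken relative to its own control mean, were compared by their root mean square difference on the log2 scale. The difference between the groups stays in such a profile and weighs heavily in the distance. Closeness therefore mainly reflects a like size of difference, the value on which the members were picked. The closest members were mdm2 and foxo3b, at 0.18, and sesn3 and rps27l, at 0.19, and the most distant were gadd45aa and btg2, at 2.80. Outside the 8 genes, the named gene closest to gadd45aa and to phlda3 was isg15, a ubiquitin-like modifier, at 0.31 and 0.30. The closest to foxo3b was the apoptosis protease casp8 (0.15), and the closest to mdm2 was zgc:101772 (0.12). Next to rps27l stood taf1c (0.10), a subunit of the RNA polymerase I selectivity factor, next to sesn3 lyrm1 (0.07), and next to ccng1 tnfaip6 (0.08). The closest to btg2 was zgc:77151 (0.02). In ccng1 and btg2 the second closest gene had the same rounded distance, so there the nearest gene is not set apart. In phlda3 the second closest, casp8, stood at 0.31, so isg15 is hardly set apart there either.

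**Figure D3:**
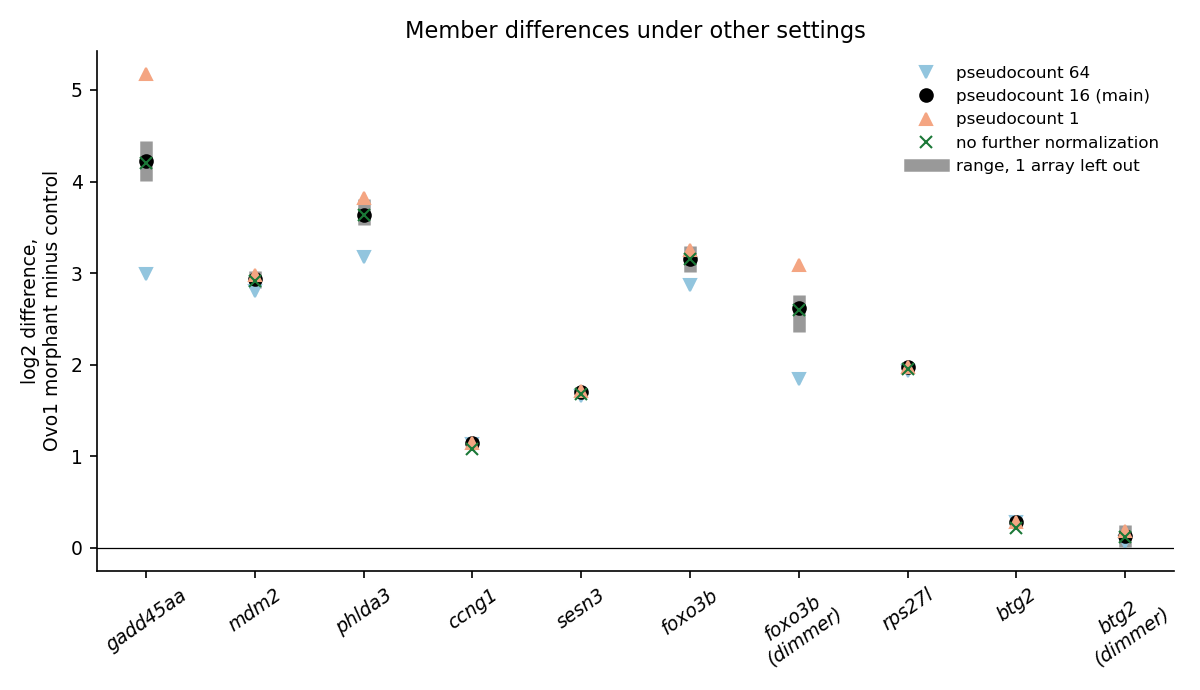
Log2 difference, Ovo1 morphant minus control, of the 10 member probe sets under pseudocounts of 64, 16 and 1 and without further normalization; grey bars span the fits that each left out 1 array. The pseudocount moves gadd45aa from 2.99 to 5.17 and the dimmer foxo3b probe set from 1.84 to 3.09, while mdm2, ccng1, sesn3 and rps27l hardly move.

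Other genes of the same families were compared next, and these were tested with limma (Benjamini-Hochberg adjusted p over all 15502 probe sets, threshold 0.05). Of 16 measured relatives 3 were higher, phlda2, btg1 and tob1a, and 2 lower, ccng2 and ccni. Over all probe sets 2.59% were higher and 3.12% lower. The median difference of the relatives was 0.26. With the replicate number as a block, 7 relatives were higher and 3 lower, where 8.82% and 9.83% of all probe sets passed; the added ones were gadd45ba, gadd45bb, btg3 and tob1b, higher, and mdm4, lower. The differences of members and relatives stand side by side without a test between them.

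The duplicate of gadd45aa, gadd45ab, read 96.9, 107 and 129 in morphants, against 97.6, 105 and 124 in controls, a difference of 0.03 ± 0.13 (limma, adjusted p = 0.931). The remaining Gadd45 genes lay between 0.01 and 0.39: gadd45ba at 0.39 ± 0.11 (adjusted p = 0.0685, limma), gadd45bb at 0.38 ± 0.13 (0.128) and gadd45ga at 0.01 ± 0.18 (0.985). A second probe set of gadd45ba gave 0.52 ± 0.13. The gene mdm4, whose product partners with Mdm2, read 281, 207 and 275 in morphants, against 431, 262 and 330 in controls. Its groups overlapped, with a difference of −0.39 ± 0.19 (adjusted p = 0.289, limma).

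Both measured cyclin relatives of ccng1 fell. The cyclin G2 gene ccng2, in mammals a Foxo target that slows the cell cycle, read 56.4, 63.2 and 65.1 in morphants, against 230, 202 and 267 in controls. It fell by 1.67 ± 0.12 on the log2 scale (adjusted p = 0.00014, limma), and its second probe set fell by 1.19 ± 0.12. The gene ccni, for the atypical cyclin I, read 786, 1026 and 846 in morphants, against 1427, 1578 and 1686 in controls, and fell by 0.81 ± 0.10 (adjusted p = 0.00301, limma). Whichever 1 array was left out, both still passed. In fits chosen after seeing the data, without both arrays of number 2 or of number 3, only 1 relative passed as lower.

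The Phlda relative phlda2, known in mammals as an imprinted gene that restrains placental growth, read 323, 448 and 343 in morphants, against 53.8, 43.0 and 66.3 in controls. It rose by 2.47 ± 0.15 (5.53-fold, adjusted p = 6.03e-05, limma). The foxo3b duplicate foxo3a read 172, 189 and 175 in morphants, against 149, 147 and 148 in controls, a difference of 0.25 ± 0.12 that did not pass (adjusted p = 0.259, limma). Its other probe sets disagreed, at 0.04 ± 0.12 and, in a dim one, at 0.50 ± 0.12. The dim one passed narrowly (adjusted p = 0.0499, and 0.0132 with the replicate block, limma). Whether probes of foxo3a also bind foxo3b transcripts was not tested.

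Of the ribosomal protein genes that rps27l resembles, neither passed by its brightest probe set. The gene rps27.1 stood at −0.01 ± 0.06 (adjusted p = 0.974, limma), and its second probe set at −0.05 ± 0.07. The last probe set read 3865, 4790.1 and 4811 in morphants, against 4949, 5535 and 5332 in controls, with all morphants below all controls (−0.21 ± 0.08); it passed only with the replicate block (adjusted p = 0.172 without it and 0.0204 with it, limma). The gene rps27.2 read 7467, 5546 and 4125 in morphants, against 4593, 4584 and 4397 in controls, so that morphant 1 alone stood far above (0.33 ± 0.19, adjusted p = 0.362). Whether probes of these paralogues also bind rps27l transcripts was not tested.

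In the Btg and Tob family of antiproliferative proteins, btg1 read 1798, 1899 and 1670.4 in morphants, against 1084, 913 and 1006 in controls. It rose by 0.84 ± 0.09 (adjusted p = 0.00155, limma), beside 0.28 in btg2. The gene tob1a rose by 0.54 ± 0.13 (adjusted p = 0.0427, limma), but among fits with 1 array left out it passed only without Ovo1 morphant replicate 1 (up to 0.181 otherwise). Its duplicate tob1b stood at 0.45 ± 0.11 (0.056), btg3 at 0.27 ± 0.10 (0.16) and the dim btg4 at 0.04 ± 0.12 (0.917). The sestrin genes sesn1 and sesn2 have no named probe set and were not analysed here.

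**Figure D4:**
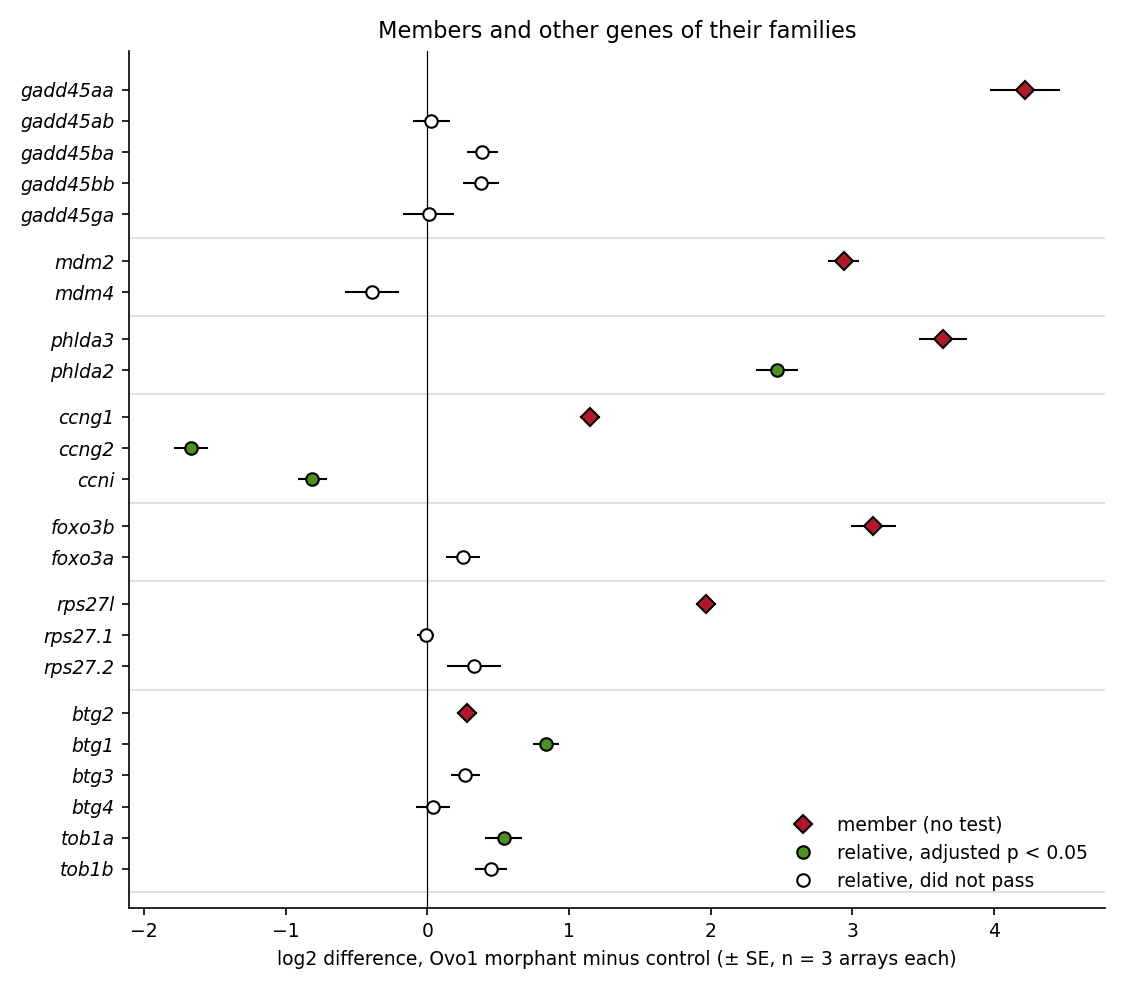
Log2 difference, Ovo1 morphant minus control, with its SE (n = 3 arrays each), of 7 members (red diamonds) above the other measured genes of their families (circles, green where adjusted p is under 0.05). Relatives range from −1.67 in ccng2 to 2.47 in phlda2; sesn3 has no measured relative and is not drawn.

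For the wider damage response network, 52 regulators and targets beyond the 8 members were listed, and 32 of them were measured. Like the other lists here, it was written with earlier results of these data known, so its counts only describe the listed genes. In morphants 7 were higher and 2 lower (limma), where 2.59% and 3.12% of all probe sets passed. The median difference was 0.11. The caspase gene casp8 read 587, 539 and 478 in morphants, against 43.8, 28.3 and 48.0 in controls (3.33 ± 0.16, adjusted p = 1.99e-05). The BH3-only gene bbc3, or puma, read 484, 350 and 177 in morphants, against 44.8, 19.7 and 32.7 in controls (2.81 ± 0.34, adjusted p = 0.00283, limma). In bbc3 morphant 3 was the lowest of its group and still above all controls. The pore-forming gene baxa rose by 1.04 ± 0.08 (adjusted p = 0.00017, limma).

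The other higher genes were isg15, tp53inp1, tp53inp2a and plk3. The modifier isg15, which interferons induce as well as DNA damage, read 454, 649 and 463 in morphants, against 22.0, 14.4 and 28.7 in controls (3.86 ± 0.18, adjusted p = 1.41e-05, limma). The stress-induced gene tp53inp1, for a nuclear protein with a role in cell death, rose by 2.29 ± 0.19 (adjusted p = 0.000304, limma), and tp53inp2a, of the same family and known for autophagy, by 0.69 ± 0.14 (0.0251). The stress kinase gene plk3 rose by 0.49 ± 0.09 (0.0175). The transcription factor gene tp63, a regulator of epidermis, fell by 0.48 ± 0.09 (0.0181), while its second probe set stood at −0.17 ± 0.12 and did not pass. The apoptosis inhibitor gene triap1 fell by 0.48 ± 0.11 (0.045).

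Among the members of this network that did not pass were further known targets of the damage response, such as ddb2 and xpc of nucleotide excision repair (−0.09 ± 0.15 and −0.44 ± 0.14), the death receptor gene fas (0.12 ± 0.14) and the BH3-only gene pmaip1 (0.06 ± 0.25). These 4 were chosen for mention after their values were seen. Of these 4, xpc passed, as lower, with the replicate block, but its second probe set did not (−0.13 ± 0.13, adjusted p = 0.439, limma with the block). Other genes that did not pass went the other way and passed, as higher, with the block. They were ppm1db (0.36 ± 0.13), apaf1 by its brighter probe set (0.38 ± 0.12), aifm2 (0.35 ± 0.11) and epha2a (0.32 ± 0.11), also named after their values were seen. The gene cdkn1a, for a cyclin kinase inhibitor, has no named probe set and was left out. The count of 9 passing genes was 5, all higher, without Ovo1 morphant replicate 2, Ovo1 morphant replicate 3, control replicate 2 or control replicate 3, and with the replicate block it was 11 higher and 3 lower (8.82% and 9.83% of all probe sets). The calls of tp63 and triap1 ended without any array but the first morphant one, Ovo1 morphant replicate 1 (reaching adjusted p = 0.119 and 0.201), and those of tp53inp2a and plk3 ended without those same 4 arrays (up to 0.115 and 0.111).

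Of genes that sense DNA breaks or stalled replication, 18 were measured, and 3 were lower and 0 higher (limma), with a median of −0.27. Over all probe sets 3.12% were lower and 2.59% higher. At an unadjusted p under 0.05 the list had 0 higher genes and 9 in all, where 9.99% of all probe sets were higher and 21.3% passed in either direction. The lower genes were prkdc, the DNA-dependent protein kinase (−0.80 ± 0.19, adjusted p = 0.0433), rad9a of the checkpoint clamp (−0.63 ± 0.15, 0.0452) and rpa1 of the single-strand binding complex (−0.46 ± 0.09, 0.0242). The checkpoint kinase genes chek1 (−0.41 ± 0.12, 0.0832) and chek2 (−0.10 ± 0.12, 0.709) did not pass, and atm and atr have no named probe set. With the replicate block 7 were lower, chek1 among them, and 0 higher, beside 9.83% and 8.82% of all probe sets. No gene of the list passed without Ovo1 morphant replicate 2 or control replicate 3, and 1 passed without Ovo1 morphant replicate 3, control replicate 1 or control replicate 2.

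**Figure D5:**
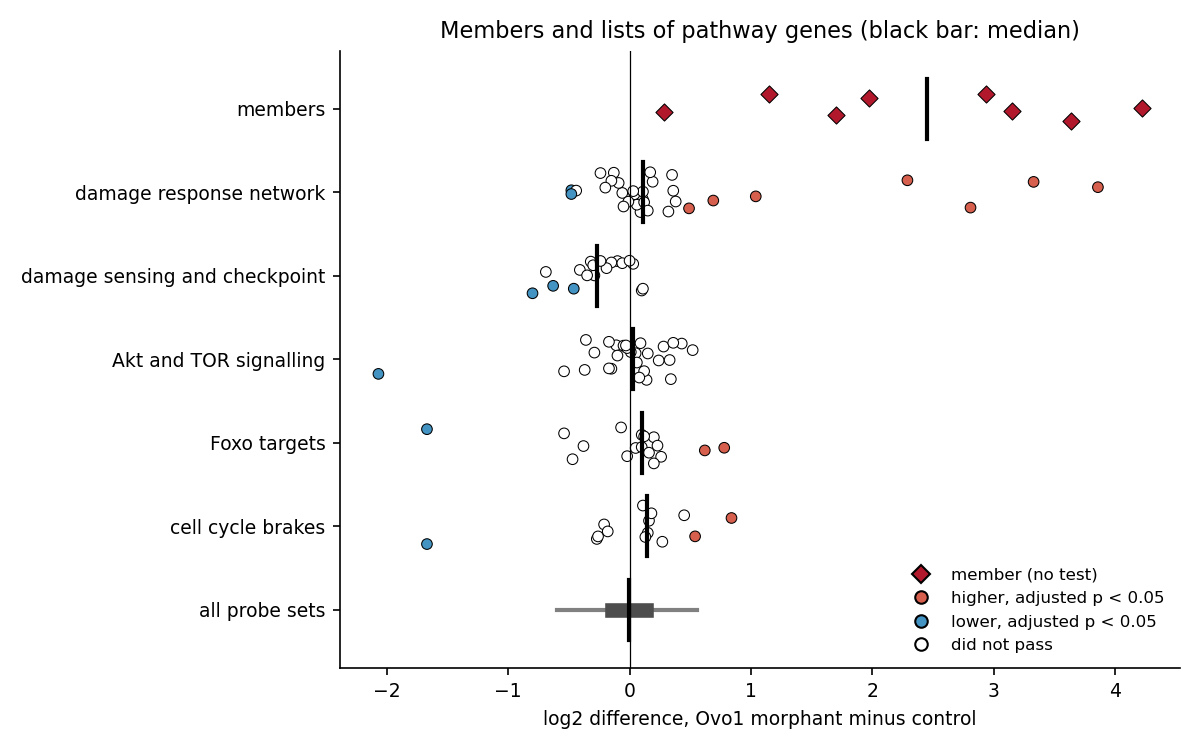
Log2 difference, Ovo1 morphant minus control, of the 8 members and of 5 lists of pathway genes, 1 point per gene, coloured where adjusted p is under 0.05; black bars are medians. For all probe sets the thick bar spans the middle 50% and the thin one the middle 95% (−0.60 to 0.56); list medians lie between −0.27 and 0.14.

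For the Akt and TOR pathway, to which phlda3, sesn3 and foxo3b are linked, 28 listed genes were measured. Of these, 1 was lower and 0 higher (limma). Among the 9 with an unadjusted p under 0.05 (limma), 4 were higher. The counts by adjusted p are near the shares over all probe sets, 3.12% lower and 2.59% higher. At an unadjusted p under 0.05, 9.99% of all probe sets were higher and 21.3% passed in either direction. The median was 0.03. The lower gene was mlst8, a subunit shared by both TOR complexes, which read 39.8, 45.9 and 53.1 in morphants, against 218, 245 and 276 in controls. It fell by 2.07 ± 0.14 (adjusted p = 7.59e-05, limma), and its second probe set fell by 1.61 ± 0.14. The kinase genes mtor (−0.36 ± 0.16, adjusted p = 0.234) and akt2 (0.12 ± 0.11, 0.621) did not pass, and akt1 has no named probe set. With the replicate block 4 genes were higher and 2 lower (8.82% and 9.83% of all probe sets), and without Ovo1 morphant replicate 1 the counts were 3 and 3. The list is not the whole pathway. It left out pik3r3a, whose profile was the second closest to that of rps27l (0.15, where rps27l differed by 1.97). It also left out igf2a, the second closest to sesn3 (0.11, where sesn3 differed by 1.70). Both were named after their values were seen.

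Among known targets of Foxo factors, 17 genes beyond the 8 members were measured; 2 were higher and 1 lower (limma), beside 2.59% and 3.12% of all probe sets, with a median of 0.10. The higher genes were ulk1b, for an autophagy kinase (0.78 ± 0.12, adjusted p = 0.01), and txnipa, for a thioredoxin-binding protein that limits glucose uptake (0.62 ± 0.12, 0.0255); the lower gene was ccng2. The call of ulk1b ended without control replicate 2 or control replicate 3 (adjusted p up to 0.061), which left 1 gene of the list past the threshold. That of txnipa ended without those arrays, control replicate 1 or Ovo1 morphant replicate 2 (up to 0.0946). With the replicate block 2 were higher and 4 lower, beside 8.82% and 9.83% of all probe sets.

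Of 14 other brakes on the cell cycle, 2 were higher, btg1 and tob1a, and 1 lower, ccng2 (limma), beside 2.59% and 3.12% of all probe sets, with a median of 0.14. These 3 were also counted among the family relatives. With the replicate block 4 were higher and 2 lower, beside 8.82% and 9.83%. The added lower gene was e2f4, named after its values were seen (−0.27 ± 0.11, adjusted p = 0.0227, limma with the block). Its second probe set passed as higher with the block (0.39 ± 0.10, adjusted p = 0.0181, limma), so the direction of e2f4 is not settled. The cyclin kinase inhibitor gene cdkn1bb stood at 0.16 ± 0.13 (adjusted p = 0.571, limma), and its second probe set at −0.12 ± 0.16 (0.763). No probe set is named for cdkn1ba.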

How the data were processed

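Total RNA of 6 whole-embryo samples was hybridised to Affymetrix zebrafish arrays, 1 per sample. Per the submitters' processing notes, the authors made the deposited intensity of each probe set, on a linear scale, with PLIER in Affymetrix Expression Console 1.1, with settings not given in these sources. Then 115 control probe sets were left out and log2(intensity + 16) was quantile-normalized. Groups were compared by limma 3.58.1 in R 4.3.3 (lmFit, eBayes with trend), as morphant minus control; p-values were Benjamini-Hochberg adjusted over 15502 probe sets, with 0.05 as the threshold; figures used matplotlib 3.10.9. The script was tested on simulated data with independent arrays, which does not cover a pairing of arrays by replicate number.

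Genes were named from the platform annotation, updated by gene identifier to RefSeq (GRCz12tu): 10795 probe sets had 1 symbol, 135 several (not named) and 4572 none. The brightest probe set stood for a gene. Members and lists were chosen with earlier results of these data known. Named were all member and relative genes, called list genes (at most 8 a list), a fixed set, and for each member the gene nearest in profile. Other names are marked as chosen later.

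Samples were grouped by title. Deviations from group means correlated across probe sets between same-numbered arrays (r = 0.578, 0.461 and 0.542, each above the limit of 0.1). The fit as reported nevertheless had no replicate block. Its SEs and, unless the block is named, the adjusted p-values therefore ignore a possible pairing. Blocked counts stand beside those they change. Alternatives covered normalization, pseudocount, a filter on dim probe sets, the trend, the block, averaging probe sets and leaving out arrays. A further gene is not reported here.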

Additional observations from a re-analysis of the deposited data

How the results depend on the processing

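No member probe set changed the sign of its difference under any alternative. The members were picked from this contrast and the alternatives reuse its arrays, so the kept sign is no support for the differences. The dimmer btg2 probe set came down to 0.01 without control replicate 1. The median of the 8 members, 2.45, was 2.36 with a pseudocount of 64, between 2.38 and 2.50 with 1 array left out, and between 2.37 and 2.55 with both arrays of a replicate number left out, an alternative chosen after seeing the data. Of all probe sets, 886 passed in the fit as reported, 2891 with the replicate block, 269 to 1713 with 1 array left out and 66 to 1749 with a number left out. Over both kinds of fit with arrays left out, the counts ran from 2 to 7 of the family relatives, 4 to 10 of the damage response network, 0 to 4 of damage sensing, 1 to 6 of Akt and TOR signalling, 1 to 5 of Foxo targets and 1 to 4 of the cell cycle brakes. With the replicate block these lists had 10, 14, 7, 6, 6 and 6 passing genes. Akt and TOR signalling, with 1 as reported, had 3 after the filter on dim probe sets and 2 with median centring or with the values as deposited. The causes were not tested. With 3 arrays a group and PLIER settings unknown, changes of dim probe sets are the least certain in size, as in gadd45aa (2.99 to 5.17 between pseudocounts of 64 and 1) and the dimmer foxo3b probe set (1.84 to 3.09).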

Other observations

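The genes that lie next to the members on their chromosomes were also read, a check chosen after the members' values were seen. In the RefSeq gene order (GRCz12tu, used for order only) the nearest measured named gene on each side gave 16 neighbours. In the limma fit without the block 0 were higher in morphants and 1 was lower, beside 2.59% and 3.12% of all probe sets; the lower one was rbbp5 beside btg2 (−0.36 ± 0.09, adjusted p = 0.0481, and 0.0467 to 0.2 with 1 array left out, where it passed once). The neighbours ranged from −0.46 in dmbx1a to 0.30 in gng12a, both beside gadd45aa, with a median of −0.07. With the replicate block 1 of the 16 was higher, gng12a, and 3 were lower, beside 8.82% and 9.83% of all probe sets.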
